A study of Mus musculus with 12 samples.

Results

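The constitutive proteasome is described here by its 34 subunit genes, out of 16399 gene symbols listed over 5 comparisons of treated MC38 tumour cultures. The members were every listed symbol made of Psma, Psmb, Psmc or Psmd and a number, leaving out the interferon-inducible catalytic genes Psmb8, Psmb9 and Psmb10 and the thymic gene Psmb11. The rule itself uses no measured value, though it was chosen with earlier results of these data known. All 34 had an adjusted p in all 5 comparisons. The testis gene Psma8 was not analysed here. MC38 is a mouse colon carcinoma line, labelled here as C57BL/6 albino. Tumours had been dissociated, and fragments of 40 to 100 µm were kept for 6 days in collagen at 2.8 mg/mL inside culture chips, in 300 µL of medium per well. RNA was sequenced after exome capture. Each of the 4 groups held 3 samples. The antibody groups were a control antibody (IgG, clone 2A3), a PD-1 antibody (aPD-1, clone RMP1-14) and the latter with a CD8 antibody (aPD-1+CD8). PD-1 is a receptor on T cells, and every antibody was used at 10 µg/mL. The last group received interferon-gamma protein (IFNg) at 100 ng/mL. By their labels, the IFNg wells held no antibody, and those with aPD-1 held no control IgG. Nothing states whether separate tumours were used for the samples of a group, so a p-value here covers the spread of these samples alone, and that spread may be technical.

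The proteasome is the protease that degrades ubiquitin-tagged proteins in every cell type, and it also cuts the peptides that MHC class I shows to killer T cells. Its barrel-shaped core is built of alpha rings, which gate the entrance, around beta rings, which hold the cutting sites. A regulatory particle caps the core: its base of ATPases unfolds the substrate, and its lid removes the ubiquitin. Interferon-gamma is known to switch on a second set of catalytic beta subunits, which take the place of the constitutive ones in newly built immunoproteasomes. Constitutive subunit genes are known to be transcribed together, driven by the factor Nrf1 (Nfe2l1) when the proteasome is impaired.

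The data were the authors' 5 DESeq2 comparison tables, with no values of single samples, so levels are given by group and spread by the standard error (SE) of each log2 fold change. The mean counts summed to between 10292941 and 11590748 over the 5 tables, and the ribosomal RNA gene Rn45s held 27.8% to 29.6% of them. In the comparison of aPD-1 with IgG, the authors' deposited table gave mean counts of 0.152 for Epcam and 2.49 for Krt8, so epithelial markers were almost absent from this carcinoma culture. T cell markers were also close to absent, with Cd3e at 0.381 in the authors' deposited table. Fibroblast markers moved with treatment: 4 of the 6 tested were called higher with aPD-1 than with IgG, against 8.5% of all genes tested. In IFNg v IgG, 1 of the 6 tested was called higher and 2 lower, against 2.73% and 1.38% of all genes tested. The summed group mean of the fibroblast markers, solved from the tables, was 9658 with aPD-1 against 3094 with IgG, 2816 with aPD-1+CD8 and 2936 with IFNg. In aPD-1 v IgG none of the 7 fibroblast markers listed was at 0, the lowest being Lum at 1.55 in the authors' deposited table. The lowest mean count among the fibroblast markers was 0.114 in aPD-1+CD8 v IgG and 0.123 in IFNg v IgG. Endothelial markers, at low counts, summed to 94.1 with aPD-1, 30.4 with IgG, 32.1 with aPD-1+CD8 and 54.0 with IFNg. Only 1 of them was tested in aPD-1 v IgG, and it was called higher. Macrophage markers summed to between 203 and 226 in the antibody groups and to 522 with IFNg, the latter mostly from Csf1r, whose test the authors' table leaves empty in that comparison. In IFNg v IgG, 4 of the 10 markers had a positive log2 change and 6 a negative one. Of the 8 tested there, 0 were called higher and 1 lower, where 2.73% of all genes tested were higher and 1.38% lower. The part of these cell types in the results below was not tested. In bulk RNA, fewer cells of a type and less RNA per cell cannot be told apart.

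Almost all constitutive proteasome genes were measured close to their control level in each treatment. Of the 34 members, 1 rose with aPD-1 against IgG (the base assembly chaperone Psmd10), 1 rose with IFNg against IgG (the alpha ring gene Psma5) and 1 was higher with IFNg than with aPD-1 (the ATPase Psmc5), and none fell, at the authors' adjusted p under 0.05. The log2 changes of the members in the authors' deposited tables ran from -0.37 to 0.61 for aPD-1 v IgG, with a median of -0.02, and from -0.14 to 0.62 for IFNg v IgG, with a median of 0.09. In each of those comparisons 33 of the 34 members had a log2 change under 0.5 in size. Among all genes tested, 9032 of 12024 did in aPD-1 v IgG and 10673 of 11478 in IFNg v IgG, so most genes did with IFNg.

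**Figure D1:**
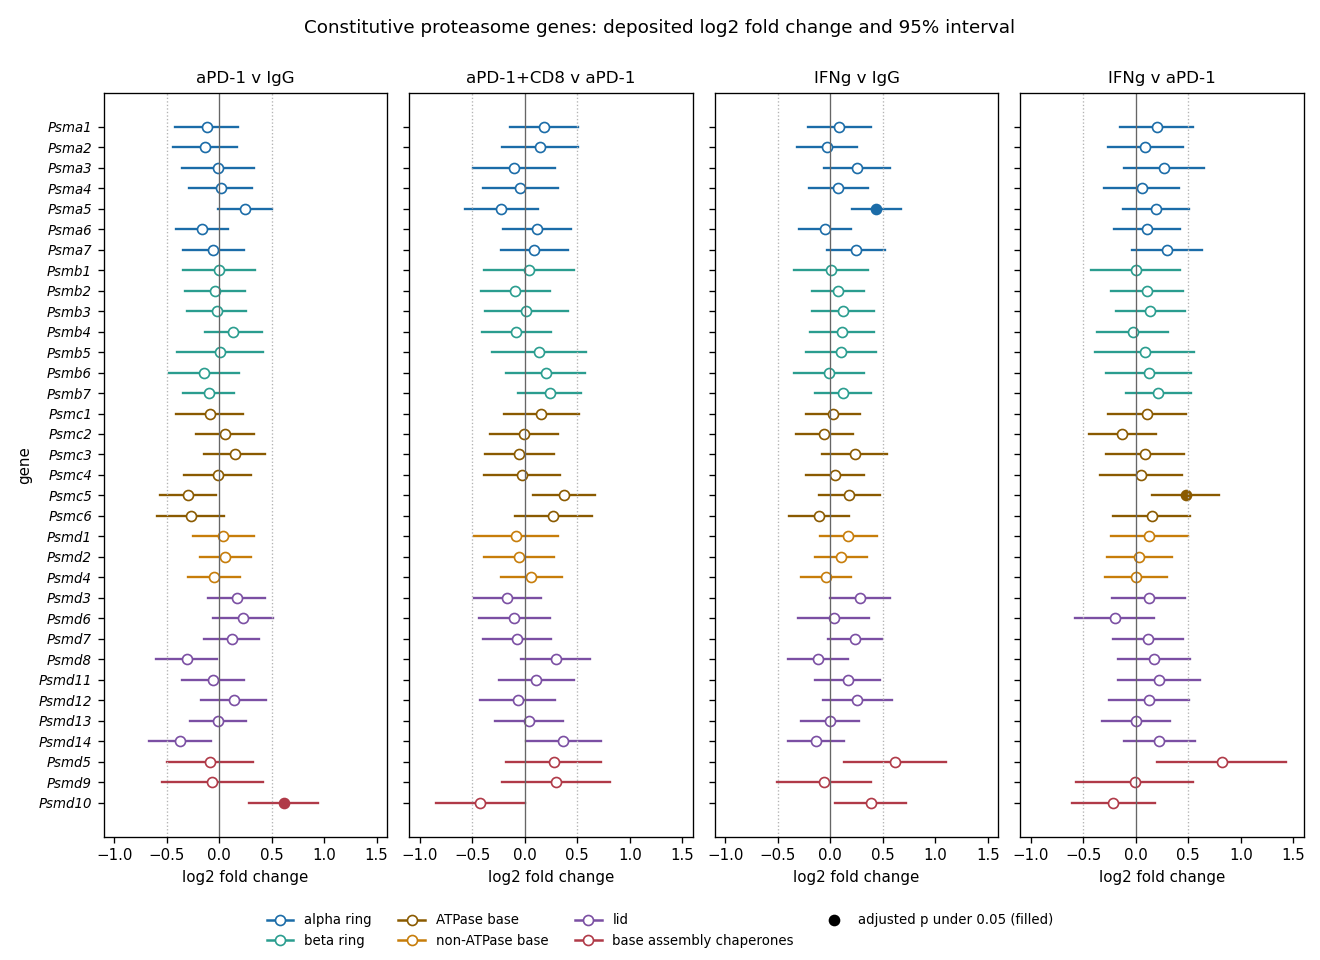
Log2 fold change (horizontal axis) of the 34 members (rows, coloured by their place in the complex) in 4 of the authors' comparisons, with bars for 95% intervals and filled points for an adjusted p under 0.05. Only Psmd10 (aPD-1 v IgG), Psma5 (IFNg v IgG) and Psmc5 (IFNg v aPD-1) are filled; aPD-1+CD8 v IgG, in which every member lies between -0.10 and 0.11, is not drawn.

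The share of all tested genes that passed the same threshold was 18.5% in aPD-1 v IgG, where 8.5% were higher and 10% lower, against 1 of 34 members. It was 14.8% in aPD-1+CD8 v aPD-1 (7.82% higher, 6.94% lower), where 0 of 34 members were called by DESeq2 and 2 had an unadjusted p under 0.05, against 25.4% of all genes tested. In IFNg v IgG it was 4.1% (2.73% higher, 1.38% lower), so that 1 of 34 members was near the background. In IFNg v aPD-1 it was 15.5% (8.39% higher, 7.13% lower), against 1 of 34. In aPD-1+CD8 v IgG the share was 0%, and 0.372% of genes had an unadjusted p under 0.05, as did 0 of the 34 members. The comparisons share their control or aPD-1 samples, so their values for a gene are not independent.

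The interquartile range of the members' log2 changes was 0.155 in aPD-1 v IgG, against 0.544 for all genes tested and 0.501 for genes whose mean count reached 100. For IFNg v IgG the range was 0.230 against 0.306 for all genes tested, and for IFNg v aPD-1 it was 0.151 against 0.609. It was 0.248 against 0.555 in aPD-1+CD8 v aPD-1. In aPD-1+CD8 v IgG it was 0.0515 against 0.0528 for all genes tested. Among genes whose mean count reached 100, it was 0.0483 for the members and 0.0850 for all genes there. The precision limits what these values show: the 95% interval lay within 0.5 either side of 0 for 26 of 34 members in aPD-1 v IgG, for 25 in IFNg v IgG and for 17 in IFNg v aPD-1. It lay within 1 either side of 0 for all 34, 33 and 33 members. Changes smaller than about 0.5 in single genes were thus not detectable for many members. The deposited log2 changes also look shrunken toward 0, so these intervals may lie too close to 0. For Psmd5 in IFNg v IgG, the group means solved from the mean counts gave a log2 ratio of 0.85, against the deposited 0.62.

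**Figure D2:**
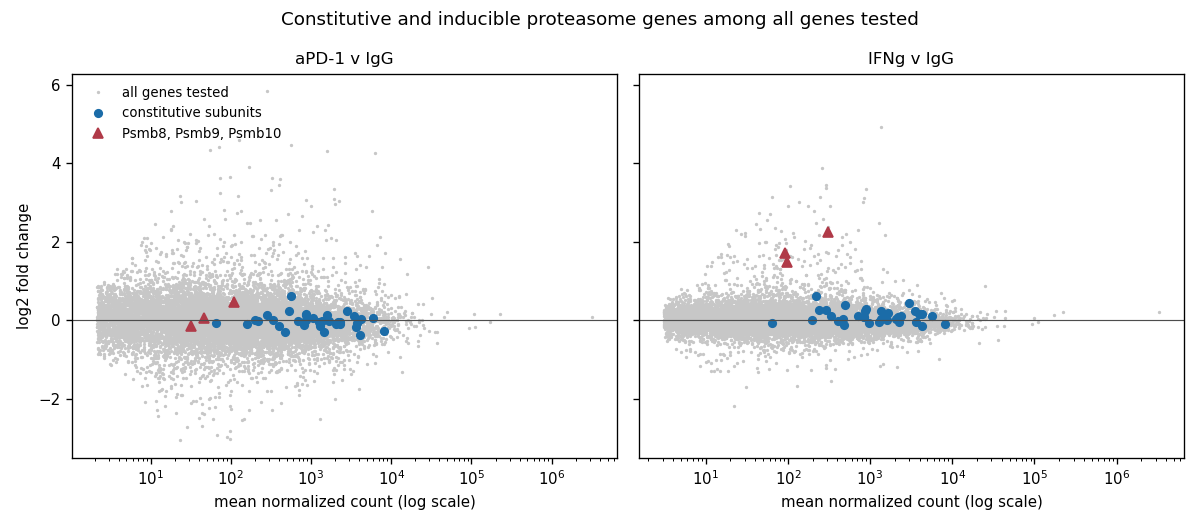
Log2 fold change against mean normalized count (log axis) for all tested genes (grey), the 34 constitutive members (blue circles) and Psmb8, Psmb9 and Psmb10 (red triangles), in aPD-1 v IgG (left) and IFNg v IgG (right). The blue points run from -0.37 to 0.61 on the left and from -0.14 to 0.62 on the right, and the red ones lie between 1.48 and 2.25 on the right.

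The direction of the small differences was uneven. With IFNg, 24 of 34 members had a positive log2 change against IgG and 26 of 34 against aPD-1, with medians of 0.09 and 0.11, while the medians of all genes tested were 0.01 and -0.00. Among all genes tested, 5919 of 11478 and 6080 of 12260 were positive there. With aPD-1, 14 of 34 members were positive against IgG, as were 6145 of 12024 genes tested. With aPD-1+CD8, 26 of 34 members were positive against IgG and 19 of 34 against aPD-1, with medians of 0.03 and 0.04. Among all genes tested, 7646 of 15304 and 5723 of 11560 were positive there. In aPD-1+CD8 v IgG every member lay between -0.10 and 0.11, and those changes appear strongly shrunken toward 0. The members were measured in the same samples, so their directions are not independent, and these counts were not tested. Summed over the 34 genes, the group means solved from the authors' mean counts were 62836 for IgG, 60357 for aPD-1, 63983 for aPD-1+CD8 and 66598 for IFNg, a highest to lowest ratio of 1.10. No error can be put on such sums, since the tables hold no single samples. The members took between 0.527% and 0.548% of all counts in the 5 tables.

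Levels of single members differed far more between genes than between treatments. Per kilobase of coding sequence, the IgG group mean was highest for Psmc6, an ATPase of the base, at 7549 counts, and lowest for the assembly chaperone Psmd9, at 101, with a median of 1222 over the members. Between the highest and the lowest treatment group, the ratio of a member's means had a median of 1.17, and it was under 1.25 for 27 of 34 members and under 1.5 for 32. The lid gene Psmd13 varied least, by 1.03 times, from 1658 with aPD-1 to 1716 with aPD-1+CD8. Psmd5 and Psmd10 were the members above 1.5, at 1.91 and 1.57. Exome capture can favour some genes over others, so the order of genes by level also holds the capture of each gene.

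The catalytic subunits are Psmb6 (beta1, which cuts after acidic residues), Psmb7 (beta2, after basic residues) and Psmb5 (beta5, after hydrophobic residues, and the main target of the drug bortezomib). The promoters of Psmb5 and Psmb6 are shown because both hold the core of the antioxidant response element, TGACNNNGC, the letters that Nrf1 and Nrf2 bind with small Maf proteins. Each sequence is the 250 bases before the RefSeq start on GRCm38.p6, 5′ to 3′ in the direction of the gene, with the match in capitals. The Psmb5 window is chr14:54617996-54618245 on the minus strand, and the Psmb6 window is chr11:70525107-70525356 on the plus strand.
Psmb5: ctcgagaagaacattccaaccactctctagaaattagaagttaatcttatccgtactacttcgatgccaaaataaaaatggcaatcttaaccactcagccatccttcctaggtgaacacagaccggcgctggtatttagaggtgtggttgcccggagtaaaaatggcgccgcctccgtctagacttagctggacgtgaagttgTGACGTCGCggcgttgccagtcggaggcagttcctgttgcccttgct
Psmb6: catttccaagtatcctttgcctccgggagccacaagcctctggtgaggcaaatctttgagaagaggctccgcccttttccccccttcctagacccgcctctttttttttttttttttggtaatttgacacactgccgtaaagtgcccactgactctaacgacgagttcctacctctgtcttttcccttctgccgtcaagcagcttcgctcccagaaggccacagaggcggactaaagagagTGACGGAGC
The Psmb5 match begins at position -47 and the Psmb6 match at -9, counting back from the start. No promoter sequence was available for Psmb7, so it was not searched. The core was found in 5 of the 28 members searched (17.9%) and in 11.5% of all gene symbols.

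None of the catalytic genes passed the test in any comparison, where 0% to 18.5% of all genes tested were called. Psmb5 had group means of 334 (IgG), 337 (aPD-1), 375 (aPD-1+CD8) and 360 (IFNg) counts. Its log2 change in the authors' deposited tables was 0.01 ± 0.21 (SE) for aPD-1 v IgG and 0.10 ± 0.17 for IFNg v IgG. The 4 groups of Psmb5 thus lay within 1.12 times of each other. Psmb6 had group means of 419, 377, 439 and 414 in the same order. Its log2 change was -0.15 ± 0.17 for aPD-1 v IgG and -0.01 ± 0.17 for IFNg v IgG in the authors' deposited tables, and the aPD-1 group was its lowest. Psmb7 was the most abundant of the catalytic genes, with group means of 2369, 2207, 2636 and 2594. Its log2 change was -0.10 ± 0.12 for aPD-1 v IgG and 0.12 ± 0.14 for IFNg v IgG, and 0.24 ± 0.15 (adjusted p = 0.33) for aPD-1+CD8 v aPD-1, in the authors' deposited tables. For IFNg v IgG the 95% intervals were -0.23 to 0.44 for Psmb5, -0.35 to 0.32 for Psmb6 and -0.14 to 0.39 for Psmb7, from the authors' deposited table, so a log2 change of 1 in either direction lies outside each interval. These intervals rest on log2 changes that look shrunken toward 0. The group means gave log2 ratios of 0.11, -0.01 and 0.13 for Psmb5, Psmb6 and Psmb7.

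Their inducible counterparts behaved differently in the same samples. Psmb8 (in place of Psmb5), Psmb9 (in place of Psmb6) and Psmb10 (in place of Psmb7) rose with IFNg against IgG by log2 1.48 ± 0.22, 1.72 ± 0.24 and 2.25 ± 0.18 in the authors' deposited table, with adjusted p of 8.2e-10, 2.9e-11 and 1e-32. The difference between the inducible and the constitutive gene's log2 change, computed from the authors' deposited table with the errors of both genes taken as independent, was 1.37 at the beta5 site (95% interval 0.83 to 1.91), 1.74 at beta1 (1.17 to 2.31) and 2.13 at beta2 (1.69 to 2.57). All 3 intervals exclude 0. Per kilobase of coding sequence, the inducible gene held 11.6% of the pair's group mean at beta5 with IgG and 29.7% with IFNg, 8.05% and 29.2% at beta1, and 3.76% and 17.5% at beta2. The constitutive transcript of each pair was the larger one in every group by this measure, which also holds the capture of each gene. With aPD-1 the share was 11.96%, 7.81% and 5.63% at the 3 sites. The pair difference for aPD-1 v IgG was 0.04 at beta5 (interval -0.68 to 0.76), -0.01 at beta1 (-0.73 to 0.71) and 0.56 at beta2 (0.06 to 1.07). Psmb10 itself did not pass the test there, at 0.46 ± 0.22 (adjusted p = 0.15) in the authors' deposited table, and the intervals are not adjusted for the 9 pair differences computed.

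**Figure D3:**
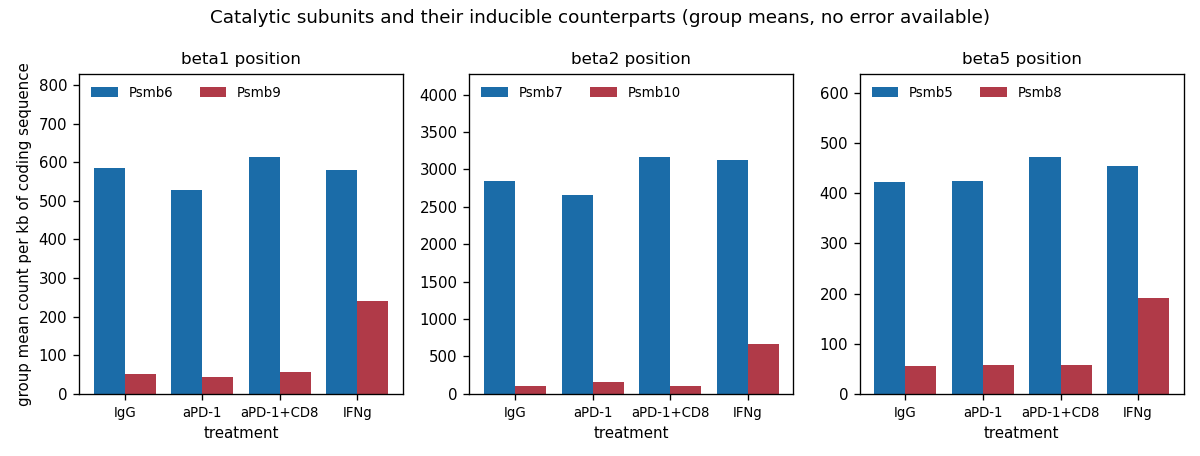
Group mean count per kilobase of coding sequence (vertical axis, a scale of its own for each panel) of the constitutive (blue) and inducible (red) gene at each catalytic site in the 4 treatments, solved from the authors' mean counts, with no error available. The red bar is the smaller of the pair in every group, and with IFNg it reaches 29.2%, 17.5% and 29.7% of the pair at beta1, beta2 and beta5.

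The other beta ring genes, Psmb1, Psmb2, Psmb3 and Psmb4, are structural subunits without a cutting site of their own. None passed the test in any comparison, against 0% to 18.5% of all genes tested. For aPD-1 v IgG their log2 changes in the authors' deposited table were 0.00 ± 0.17, -0.04 ± 0.15, -0.03 ± 0.15 and 0.14 ± 0.14. For IFNg v IgG they were 0.01 ± 0.18, 0.07 ± 0.13, 0.12 ± 0.15 and 0.11 ± 0.16 in the authors' deposited table. The beta ring as a whole ran from -0.15 to 0.14 over 7 genes with aPD-1 and from -0.01 to 0.12 with IFNg, both against IgG. Summed over the 7 genes, the ring's group means were 7723 (IgG), 7600 (aPD-1), 7939 (aPD-1+CD8) and 8291 (IFNg).

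The alpha ring genes, Psma1 to Psma7, form the gated outer rings of the core. Psma5 rose with IFNg. Its group means were 2567 with IgG, 3059 with aPD-1, 2615 with aPD-1+CD8 and 3540 with IFNg. The log2 change for IFNg v IgG was 0.44 ± 0.12 (adjusted p = 0.0084) in the authors' deposited table, an increase of 35.6%. Against aPD-1 the IFNg samples did not differ beyond the error, at 0.19 ± 0.16 (adjusted p = 0.50), and aPD-1 v IgG gave 0.24 ± 0.13 (adjusted p = 0.21) in the authors' deposited tables. RefSeq names 1 pseudogene of Psma5, 1 of Psmb5, 2 of Psmb6 and 2 of Psmb7, and the sources used here do not say how shared reads were counted. The other 6 alpha genes ranged from -0.05 (Psma6) to 0.26 ± 0.16 (Psma3, adjusted p = 0.59) for IFNg v IgG in the authors' deposited table. With aPD-1 v IgG the ring ran from -0.17 ± 0.13 for Psma6 (adjusted p = 0.43) to the value of Psma5 in the authors' deposited table, with 2 of 7 genes positive. For IFNg v aPD-1 all 7 alpha genes were positive, with a median of 0.19 and Psma7 at the top (0.30 ± 0.17, adjusted p = 0.26), and none passed the test in the authors' deposited table.

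The ATPases Psmc1 to Psmc6 form the ring that unfolds substrates and pushes them into the core. Psmc5 was the member in which IFNg and aPD-1 differed. Its group means were 1594 with IgG, 1287 with aPD-1, 1690 with aPD-1+CD8 and 1824 with IFNg, so the aPD-1 group was the lowest of the 4. The log2 change was 0.48 ± 0.16 for IFNg v aPD-1 (adjusted p = 0.027) in the authors' deposited table. It did not pass when the scores were scaled to their own spread over all genes (adjusted p = 0.14). Neither group passed the test against IgG: aPD-1 v IgG was -0.30 ± 0.14 (adjusted p = 0.12) and IFNg v IgG 0.18 ± 0.15 (adjusted p = 0.77) in the authors' deposited tables. The value for aPD-1+CD8 v aPD-1 was 0.37 ± 0.15 (adjusted p = 0.083) in the authors' deposited table, just outside the threshold and the lowest adjusted p of any member there. Psmc6, the most abundant member, was also lowest with aPD-1 without passing any test. It had group means of 8809, 7248, 8899 and 8147 in that order of groups, and -0.27 ± 0.16 (adjusted p = 0.27) for aPD-1 v IgG in the authors' deposited table. Psmc1 to Psmc4 lay between -0.09 and 0.15 for aPD-1 v IgG and between -0.06 and 0.23 for IFNg v IgG in the authors' deposited tables.

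Psmd1 and Psmd2 are the large scaffolds of the base and Psmd4 is one of its ubiquitin receptors. None passed the test, against 0% to 18.5% of all genes tested, and Psmd2 and Psmd4 varied little between treatments. Psmd2 had group means of 5730, 5973, 5769 and 6170 in the order IgG, aPD-1, aPD-1+CD8 and IFNg. Psmd4 had 2348, 2266, 2385 and 2282, a highest to lowest ratio of 1.05. Their log2 changes for aPD-1 v IgG were 0.06 ± 0.12 and -0.05 ± 0.13 in the authors' deposited table, and Psmd1 gave 0.04 ± 0.15. With IFNg v IgG, Psmd1 was highest of these, at 0.17 ± 0.14 (adjusted p = 0.76) in the authors' deposited table.

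The lid holds Psmd14, the deubiquitinase that removes ubiquitin chains from captured substrates, and structural partners that include Psmd7. Psmd14 came closest to a decrease. Its group means were 4607 with IgG, 3528 with aPD-1, 4639 with aPD-1+CD8 and 4172 with IFNg, so that the aPD-1 group again was the lowest. The log2 change for aPD-1 v IgG was -0.37 ± 0.15 (adjusted p = 0.064) in the authors' deposited table, just outside the threshold. It passed when only genes whose mean count reached 100 were adjusted together (adjusted p = 0.044). For aPD-1+CD8 v aPD-1 it was 0.37 ± 0.18 (adjusted p = 0.18) in the authors' deposited table. Psmd8, another lid gene, gave -0.31 ± 0.15 for aPD-1 v IgG (adjusted p = 0.14) in the authors' deposited table. On the positive side, Psmd6 gave 0.23 ± 0.15 (adjusted p = 0.33) there, and 4 of the 8 lid genes were positive. With IFNg v IgG the lid ran from -0.14 ± 0.14 for Psmd14 to 0.28 ± 0.15 for Psmd3 (adjusted p = 0.44) in the authors' deposited table. None of the 8 lid genes passed the test in any comparison, where 0% to 18.5% of all genes tested were called.

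Psmd5, Psmd9 and Psmd10 are chaperones that hold parts of the ATPase ring during assembly and leave before the proteasome is finished. Psmd10, known as gankyrin and studied as an oncoprotein that binds the retinoblastoma protein, was the member that rose with aPD-1. Its promoter is shown for that reason, the 250 bases before the RefSeq start on GRCm38.p6 at chrX:140956712-140956961, minus strand, with the 3 matches to CCAAT, the letters bound by the factor NF-Y, in capitals on either strand.
Psmd10: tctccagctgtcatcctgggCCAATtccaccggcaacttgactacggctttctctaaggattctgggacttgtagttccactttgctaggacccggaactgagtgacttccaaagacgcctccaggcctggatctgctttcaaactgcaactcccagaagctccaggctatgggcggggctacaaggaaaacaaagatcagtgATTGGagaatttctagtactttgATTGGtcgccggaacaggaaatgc
Its group means were 434 with IgG, 680 with aPD-1, 499 with aPD-1+CD8 and 587 with IFNg. The aPD-1 group was thus the highest and the IgG group the lowest. The log2 change for aPD-1 v IgG was 0.61 ± 0.17 (adjusted p = 0.0025) in the authors' deposited table, an increase of 53.1% with a 95% interval from 0.29 to 0.94 in log2. It did not pass when the scores were scaled to their own spread over all genes (adjusted p = 0.059). For IFNg v IgG the value was 0.38 ± 0.17 (adjusted p = 0.29), and for aPD-1+CD8 v aPD-1 it was -0.42 ± 0.22 (adjusted p = 0.20), in the authors' deposited tables. Fibroblast markers were highest in the aPD-1 group too, with the summed levels given above, and their part in this result was not tested.

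Psmd5 had the widest range of any member, with group means of 164 (IgG), 154 (aPD-1), 190 (aPD-1+CD8) and 294 (IFNg). The log2 change for IFNg v aPD-1 was 0.82 ± 0.31 (adjusted p = 0.055) in the authors' deposited table, just outside the threshold, and it passed when only genes whose mean count reached 100 were adjusted together (adjusted p = 0.038). For IFNg v IgG it was 0.62 ± 0.25 (adjusted p = 0.19) in the authors' deposited table. The standard errors of Psmd5 in the IFNg comparisons were the largest of all members, so its high IFNg mean carries a large error. Psmd9 was the least abundant member, with group means of 67.3, 63.6, 80.9 and 63.9, and its log2 change was -0.07 ± 0.25 for aPD-1 v IgG and -0.06 ± 0.23 for IFNg v IgG in the authors' deposited tables.

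With aPD-1+CD8 against IgG, every member lay between -0.10 (Psmb2) and 0.11 (Psmd5) in log2 change in the authors' deposited table, and every 95% interval lay within 0.5 either side of 0. The intervals of 15300 of the 15304 genes tested lay within 0.5 too, so this limit does not set the members apart. The fold changes of this comparison appear strongly shrunken toward 0, with SEs of 0.097 to 0.110 for the members. The group means, which are not shrunken, gave a log2 ratio of 0.27 for Psmd9, 0.22 for Psmd5, 0.20 for Psmd10, 0.17 for Psmb5 and 0.15 for Psmb7. Against aPD-1 alone the members ran from -0.42 for Psmd10 to 0.37 for Psmc5, with a median of 0.04 in the authors' deposited table.

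Several genes that work around the proteasome passed the test. Of all genes tested, 18.5% passed in aPD-1 v IgG, 4.1% in IFNg v IgG and 15.5% in IFNg v aPD-1. Of the 5 activator and inhibitor genes, Psme1 and Psme2, the PA28 cap induced by interferon, rose with IFNg against IgG by log2 1.07 ± 0.14 (adjusted p = 3.7e-13) and 1.27 ± 0.16 (adjusted p = 7.3e-13) in the authors' deposited table. Psme3, the nuclear PA28 gamma, fell with aPD-1 against IgG (-0.48 ± 0.17, adjusted p = 0.026), and Psme4, the PA200 cap, rose (0.40 ± 0.13, adjusted p = 0.016), in the authors' deposited table. Psme4 was lower with IFNg than with aPD-1 (-0.54 ± 0.15, adjusted p = 0.0047) in the authors' deposited table. All of the Psme3 and Psme4 calls were lost when scores were scaled to their own spread over all genes, with adjusted p of 0.17 for Psme3, and 0.15 and 0.058 for Psme4. Psmf1, the inhibitor PI31, passed no test. Of the 5 core assembly factors analysed (Pomp and Psmg1 to Psmg4), none was called by DESeq2 and 0 had an unadjusted p under 0.05 in any comparison, and their mean counts in aPD-1 v IgG were only 11.6 to 121.

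Among 9 proteins bound to the regulatory particle, only Uchl5, a deubiquitinase, was called in any comparison. The share of all genes tested that was called was 18.5% in aPD-1 v IgG, 14.8% in aPD-1+CD8 v aPD-1 and 15.5% in IFNg v aPD-1. Uchl5 is given first. It fell with aPD-1 against IgG (-0.71 ± 0.15, adjusted p = 6.6e-05) and was higher with aPD-1+CD8 (0.72 ± 0.19, adjusted p = 0.0021) and IFNg (0.75 ± 0.18, adjusted p = 0.00056) than with aPD-1 in the authors' deposited tables. Among the ubiquitin genes, activating enzymes and shuttles, Rps27a, which encodes ubiquitin fused to a ribosomal protein, fell with aPD-1 against IgG (-0.51 ± 0.13, adjusted p = 0.0010) and was higher with aPD-1+CD8 than with aPD-1 (0.63 ± 0.15, adjusted p = 0.00045) in the authors' deposited tables. These calls passed when scores were scaled to their spread over all genes, with adjusted p of 0.0064, 0.025 and 0.014 for Uchl5 and 0.029 and 0.0092 for Rps27a in the order given. All 5 were lost when the spread was taken from the tested genes alone, with adjusted p of 0.10, 0.24 and 0.13 for Uchl5 and 0.22 and 0.14 for Rps27a.

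The next list held 14 genes, namely Midn and genes known to act on proteasome gene transcription, on Nrf1 processing or on proteasome import. Of the 14, 3 rose and none fell with aPD-1 against IgG, where 18.5% of all genes tested were called and 8.5% were higher. Midn, midnolin, which brings nuclear proteins to the proteasome without ubiquitin, rose by log2 1.16 ± 0.20 (adjusted p = 1.6e-07) in the authors' deposited table. Nfe2l2, the stress factor Nrf2, rose by 0.57 ± 0.15 (adjusted p = 0.0013) and the small Maf gene Maff by 0.81 ± 0.30 (adjusted p = 0.039) in the authors' deposited table. With IFNg against IgG, the small Maf gene Mafk (0.79 ± 0.18, adjusted p = 0.00059) and Keap1, the adaptor that marks Nrf2 for degradation (0.67 ± 0.22, adjusted p = 0.048), rose in the authors' deposited table. Nfe2l1, the gene of Nrf1 itself, was not called in any comparison. Midn was lower with aPD-1+CD8 (-0.98 ± 0.23, adjusted p = 0.00037) and with IFNg (-0.88 ± 0.22, adjusted p = 0.0011) than with aPD-1 in the authors' deposited tables. Nfe2l2 was lower with aPD-1+CD8 than with aPD-1 (-0.52 ± 0.17, adjusted p = 0.020), and Mafk was higher with IFNg than with aPD-1 (1.13 ± 0.23, adjusted p = 1.2e-05), in the authors' deposited tables. Scaling the scores to their own spread over all genes ended the calls of Maff against IgG (adjusted p = 0.24) and of Nfe2l2 in aPD-1+CD8 v aPD-1 (adjusted p = 0.13). Taking the spread from the tested genes alone also ended those of Nfe2l2 against IgG (0.26), Keap1 (0.14), and Midn in aPD-1+CD8 v aPD-1 (0.14) and IFNg v aPD-1 (0.17), each an adjusted p. Midn against IgG (adjusted p = 0.018) and both Mafk calls (0.0044 against IgG and 0.033 against aPD-1) passed there too.

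Other large protein complexes gave a measure of how far such gene sets moved here. Of all genes tested, 8.5% were called higher and 10% lower in aPD-1 v IgG, and 4.1% were called in IFNg v IgG. Of the 8 subunits of the chaperonin TRiC, 5 fell and none rose with aPD-1 against IgG, with a median log2 change of -0.39, among them Cct2 at -0.59 ± 0.14 (adjusted p = 0.00049) in the authors' deposited table. Of 12 subunits of the translation factor eIF3, 3 fell and none rose, with a median of -0.26, among them Eif3c at -0.92 ± 0.12 (adjusted p = 1.2e-12) in the authors' deposited table. The COP9 signalosome, a relative of the proteasome lid, had 0 of 9 genes called by DESeq2, with 2 at an unadjusted p under 0.05 (28.2% of all genes tested) and a median of -0.14. The proteasome members had 1 higher and none lower of 34 in that comparison, with a median of -0.02. With IFNg against IgG none of the TRiC, COP9 or eIF3 genes was called, with 0, 0 and 1 at an unadjusted p under 0.05 (11.8% of all genes tested). Scaling the scores to their own spread over all genes ended the aPD-1 v IgG calls of Cct3, Cct6a, Cct8 and Eif3b and left those of Cct2, Cct4, Eif3c and Eif3d. With the spread of the tested genes alone, Cct2 (adjusted p = 0.18), Cct4 (0.22) and Eif3d (0.21) were lost too, and of these genes Eif3c alone passed (adjusted p = 0.00034). The differences between complexes were not tested.

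**Figure D4:**
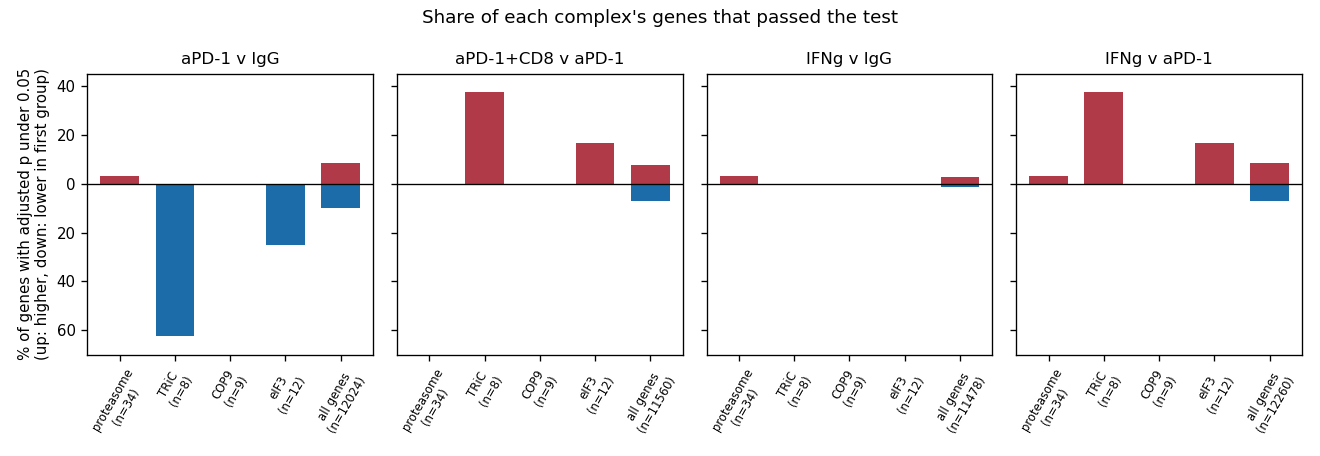
Share of genes (%, upward for higher and downward for lower in the first named group) with an adjusted p under 0.05 among the proteasome members and the subunits of TRiC, COP9 and eIF3, and among all genes tested, in 4 comparisons. In aPD-1 v IgG the TRiC bar reaches 5 of 8 genes downward and the proteasome bar is 1 of 34 upward.

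The upstream sequences of the members were searched for letters of known regulators on both strands. Of 34 members, 28 matched a RefSeq promoter on GRCm38.p6, and the share of all 27025 gene symbols in the same table is given for comparison. Psmb1, Psmb2, Psmb7, Psmc3, Psmd3 and Psmd7 had no match and were not searched. The antioxidant response core TGACNNNGC was found in 5 members (17.9%, against 11.5% of all), namely Psmb5, Psmb6, Psmc6, Psmd9 and Psmd12. The ETS factor letters CCGGAAG were found in 9 members (32.1%, against 7.83%). CCAAT was found in 11 (39.3%, against 37.5%), among them Psmd10 and Psmd14, and the heat shock letters GAANNTTC in 1, Psmb5 (3.57%, against 7.73%). The same bases could count toward more than 1 of these. The members with the antioxidant response core include the most abundant and the least abundant member. None of the 5 passed the test in any comparison, where 0% to 18.5% of all genes tested were called.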

How the data were processed

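RNA libraries of 12 samples in 4 groups of 3 were made from 250 ng of RNA by exome capture, per the labels' protocols. The tables were made with DESeq2 on mm9, per the submitters' processing notes; the sources used here do not give its version, the aligner, how reads were counted, the annotation or whether strand was used. Each deposited table gives, per the file headers, a mean normalized count (a signal: counts divided by size factors, averaged over both groups), a log2 fold change (first named group over second) with a standard error, the Wald score (score), and a p-value before and after adjustment. The deposited log2 changes look shrunken toward 0, most in aPD-1+CD8 v IgG, which understates changes. The tables held 0 columns of single samples, so per-sample values and depths were not analysed here.

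Members and lists were chosen with earlier results of these data known. A gene was called at the authors' adjusted p under 0.05, and 95% intervals are the log2 change plus or minus 1.96 SE. Group means were solved from the mean counts of the linked tables with 1 scale per table, chosen after seeing the data. The IFNg mean solved from either of its tables differed by at most 1.17% in the members. Lengths are GENCODE vM21 coding lengths. Genes named are the catalytic subunits, those called, the 3 highest and 3 lowest changes and those beside the threshold. In other lists they are the called genes, up to 5 by p, and every inducible, activator and inhibitor gene. Remaining members are given to account for all 34. Python 3.11.15, pandas 2.3.3, NumPy 2.4.6 and SciPy 1.17.1 were used. The calculations were tested on simulated data. Alternatives changed the threshold, the minimum size, the null distribution, the filter on low counts, the centring and the fold change estimate. Promoter sequences are from RefSeq (GRCm38.p6), and no coordinates of the tables' own build are given. The result of 1 gene of the other lists is not reported here.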

Additional observations from a re-analysis of the deposited data

How the results depend on the processing

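No paired analysis was possible because the tables carry no columns of single samples, and leaving out a replicate could not be run for the same reason. None of the genes called or beside the threshold changed sign under the alternatives run for them. The thresholds, the minimum size, the null distributions and the count filters keep the deposited log2 change, so its sign could not change there. Only the centring and the group means with 1 scale per table could change it. Group means without table scales were not run for single genes. In aPD-1 v IgG the count of 1 member called became 0 when scores were scaled to an empirical null and 2 when genes whose mean count reached 100 were adjusted alone, which added Psmd14. In IFNg v IgG the 1 call became 0 with a minimum log2 change of 0.5. In IFNg v aPD-1 the 1 call became 0 at an adjusted p under 0.01, with that minimum change or under the empirical null, and 2 with the mean count filter, which added Psmd5. The empirical null was first computed from the tested genes alone and was changed to all genes, as planned, after those calls had been seen. The null from all genes is the more lenient, by the counts over all genes given here. The null from tested genes also gave 0 in aPD-1 v IgG and 0 in IFNg v aPD-1, with adjusted p of 0.32 for Psmd10 and 0.47 for Psmc5. Psmd10 and Psmc5 had adjusted p of 0.059 and 0.14 under the null from all genes, and Psmd10 had 0.0016 to 0.0032 under the filters and the centring. Psma5 kept an adjusted p of 0.0058 to 0.035 over its alternatives. Over all genes, the empirical null called 1166 against 2229 genes in aPD-1 v IgG, 961 against 1706 in aPD-1+CD8 v aPD-1 and 1063 against 1903 in IFNg v aPD-1, and the null from tested genes called 523, 394 and 552. In IFNg v IgG, where Psma5 was called, these nulls called 491 and 348 against 471. The null from all genes was thus not stricter there. Group means solved without table scales moved the members' median below 0, to -0.29 in aPD-1+CD8 v aPD-1, -0.36 in aPD-1+CD8 v IgG and -0.065 in IFNg v IgG, where the medians of all well-counted genes moved to -0.33, -0.42 and -0.19. Among single genes, over the alternatives that give an adjusted p, calls were lost in 82 cases, gained in 2 and unchanged in 267. Depth per library is unknown, and the SE limits the changes that could be seen.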
